A study of Mus musculus with 18 samples.

Results

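The TCDD response described here is that of mouse livers in which every cell type kept the aryl hydrocarbon receptor (AHR). It was read by comparing 3 WT livers given TCDD (mice 2, 8 and 14) with 3 WT livers given vehicle (mice 1, 7 and 13), chosen by the genotype and treatment in their labels. These are 6 of the 18 libraries of the series, which also holds TCDD and vehicle groups of 3 mice with AHR deleted in hepatocytes (dHep) or in hepatic stellate cells (dHSC). All mice were female C57BL/6 animals. The series' design text describes the mice without a deletion as AhRfl/fl, that is with floxed Ahr alleles, and the groups labelled WT are read as these. Their age, and whether they carry a Cre transgene, are not given in the sources used here. TCDD at 100 µg/kg or peanut oil was given by gavage every 4 days for 92 days. Poly-T selected mRNA was taken from 10 mg of each liver with an RNA integrity number above 6.8, and each library is 1 mouse.

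TCDD is a persistent dioxin and a strong ligand of AHR. The receptor waits in the cytoplasm with chaperones, moves to the nucleus when a ligand binds, and there pairs with ARNT on short DNA elements, where it turns on detoxifying enzymes such as the CYP1 cytochromes along with its own repressor, Ahrr. In liver, long exposure to dioxins is known for fat accumulation, altered hepatocyte metabolism, inflammation and scarring. Scar matrix is laid down by myofibroblasts, most of which arise from hepatic stellate cells, and the title of the series names their activation.

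The WT libraries held 16637535 to 23294076 counts, and in no pair of replicates did the counts agree within sampling noise. Levels are given as CPM, a gene's share of the counted reads after scaling. Where 3 values stand for a group, they are vehicle mice 1, 7 and 13 and TCDD mice 2, 8 and 14, in that order. Changes are log2 differences, TCDD minus vehicle, between groups of 3 mice. Every adjusted p comes from the quasi-likelihood test of edgeR, adjusted over all tested genes by the Benjamini-Hochberg method. The SE after a log2 change is its size divided by the square root of that test's F statistic. It rests on a spread estimated over all 18 libraries. Genes with an adjusted p under 0.05 are those called. Vehicle mouse 1 carried RNA of tissue other than liver: 12 skeletal muscle genes summed to 1538 CPM there and to 1.09 to 2.39 CPM in the other 5 WT livers, 5 fat genes to 201.7 CPM against 2.53 to 6.72, and 4 mesothelium genes to 23.1 CPM against 1.37 to 7.96. Values without this mouse are given beside many results below, and the sentences on leaving out 1 mouse count the calls that end without it. Genes that lie wholly inside the span of another gene were not measured: all 1290 such protein-coding genes had 0 counts in all 18 libraries, against 17.5% of the other 20738. Timp1, Lrat and Ms4a1 lie inside another gene in this way and were listed at 0 in all 6 WT livers, so they are not read as absent. Alb, the plasma albumin gene of hepatocytes, was at 68100, 117300 and 71840 CPM with vehicle and 37250, 73200 and 45010 CPM with TCDD.

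The promoters of 4 raised AHR target genes are shown first, because AHR and ARNT recognise the core GCGTG. Enhancers further from the start are outside these windows. These are the 250 bases before the RefSeq start in the GRCm38.p6 build, read 5′ to 3′ along the gene, with each GCGTG or its reverse complement CACGC in capitals.
Cyp1a1 (chr9:57697363-57697612, plus strand): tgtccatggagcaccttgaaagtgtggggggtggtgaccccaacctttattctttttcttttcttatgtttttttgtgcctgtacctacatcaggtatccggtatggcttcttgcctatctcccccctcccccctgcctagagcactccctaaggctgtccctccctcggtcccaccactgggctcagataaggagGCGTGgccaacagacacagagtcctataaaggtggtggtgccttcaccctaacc
Cyp1b1 (chr17:79715062-79715311, minus strand): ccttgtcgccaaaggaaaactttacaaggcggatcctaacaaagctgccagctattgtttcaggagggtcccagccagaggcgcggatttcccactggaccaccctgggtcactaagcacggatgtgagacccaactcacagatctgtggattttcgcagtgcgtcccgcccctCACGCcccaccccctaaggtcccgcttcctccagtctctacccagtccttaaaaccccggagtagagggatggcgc
Ahrr (chr13:74292332-74292581, minus strand): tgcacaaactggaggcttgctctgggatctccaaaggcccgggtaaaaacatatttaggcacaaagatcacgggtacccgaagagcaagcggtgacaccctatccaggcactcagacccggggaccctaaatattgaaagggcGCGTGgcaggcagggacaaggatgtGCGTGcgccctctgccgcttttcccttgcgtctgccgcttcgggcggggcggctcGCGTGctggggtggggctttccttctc
Tiparp (chr3:65528197-65528446, plus strand): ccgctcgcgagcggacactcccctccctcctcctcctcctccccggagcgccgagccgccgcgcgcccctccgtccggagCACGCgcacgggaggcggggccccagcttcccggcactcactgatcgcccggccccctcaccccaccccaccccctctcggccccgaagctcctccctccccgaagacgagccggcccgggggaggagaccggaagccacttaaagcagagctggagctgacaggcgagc
Ahrr has 3 core matches, all read as GCGTG, the first bases lying at -107, -82 and -27 from the start. The other promoters shown have 1 each, at -54 in Cyp1a1, -76 in Cyp1b1 and -170 in Tiparp. Not every raised target gene has a match: Cyp1a2, Nqo1 and Nfe2l2 have 0 from 250 bases before to 50 after the start. Such a match is frequent: in the windows from 250 bases before to 50 after the start, searched on both strands, it stands in 47.0% of the 13925 windows of 10871 tested genes, in 37.9% of the 465 windows of 377 raised genes, in 28.0% of the 279 windows of 199 lowered genes, and in 6 of the 10 windows of tested AHR target genes. The longer form TNGCGTG, which contains the core, stands in 7.24% of all these windows, 7.96% of the raised, 3.58% of the lowered and 1 of the 10. The windows of called genes also hold fewer CpG pairs, with a median of 9 in raised and 8 in lowered genes against 19 in all tested genes, and the core contains a CpG pair. A match is a description of these letters and was not tested as a site.

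TCDD raised 509 of the 14835 tested genes, 3.43%, and lowered 289, 1.95%, so 5.38% were called. The counts of called genes in the lists below stand beside these shares. In several lists with 1 called gene in a direction the share was near them. Examples are heme and iron genes (3.45% rose) and genes of lipid uptake, storage and export (2.86% each way). The raised genes grew from 0.533% to 0.803% of counted reads in the vehicle livers to 4.95% to 5.45% in the TCDD livers. The lowered genes shrank from 3.70% to 4.87% to 1.24% to 1.31%. Of the raised genes 476 and of the lowered genes 252 are protein-coding. Changes were large, with a median size of 2.48 on the log2 scale among raised and 2.16 among lowered genes, 108 and 56 of them at least 16-fold and 15 and 14 under 2-fold. All 509 raised genes had every TCDD liver above every vehicle liver, and 277 of the 289 lowered genes had every TCDD liver below. Among all 14835 tested genes 1987 lay apart upward and 1691 downward. The calls were made on these same values, which favours genes whose groups lie apart. In simulated counts for these genes 5.97% of 67 genes changed by 1 on the log2 scale were recovered, 50.7% of 67 at 2 and 80.3% of 66 at 3. Far fewer genes were changed there than were called here, which makes the adjusted threshold stricter. The recovered shares may therefore be too low for these data. The changed genes were also drawn only from those above 1 CPM in WT vehicle livers, so the shares may be too high for genes below that level. The median log2 change of all genes tested was -0.02.

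**Figure D1:**
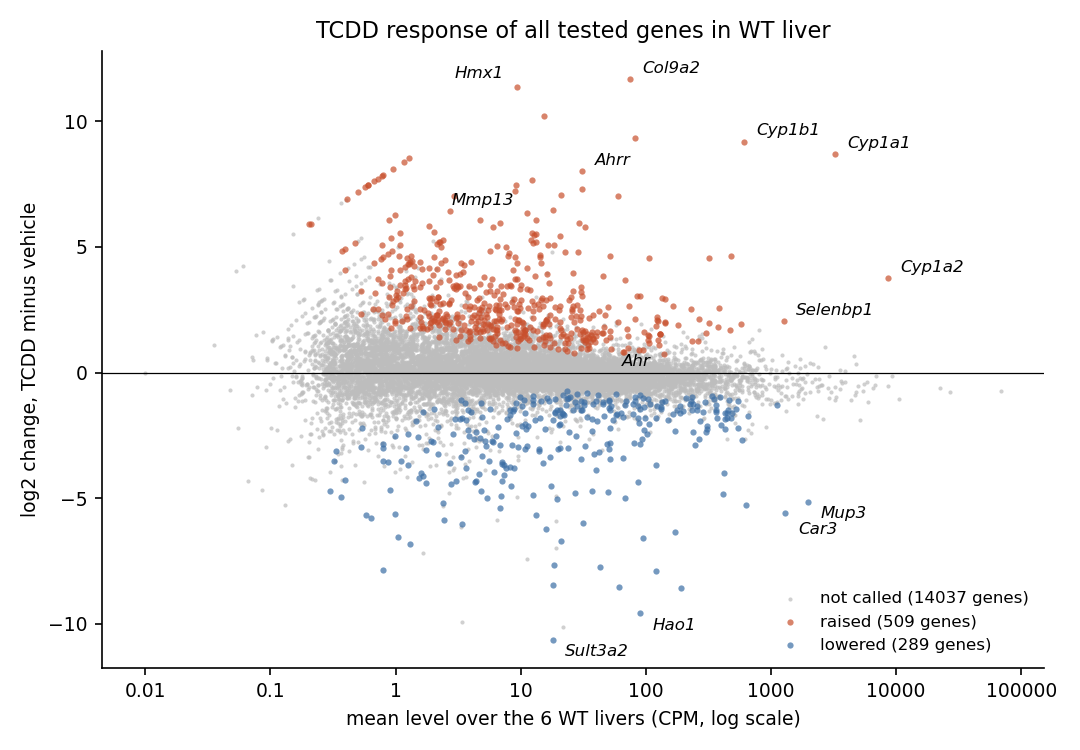
Each point is 1 of the 14835 tested genes, with its mean CPM over the 6 WT livers on a log axis and its log2 change, TCDD minus vehicle. The 509 raised genes are red, the 289 lowered blue and the rest grey, with the AHR-controlled cytochromes at the upper right and Hao1 and Sult3a2 at the bottom.

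Most of the AHR target genes tested rose. Of 12 tested AHR target genes 9 rose and 0 fell, with a median log2 change of 3.17 (3.98 without vehicle mouse 1). Cyp1a1 (ENSMUSG00000032315, chromosome 9, 57687928 to 57703824), which oxidises polycyclic hydrocarbons, went from 33.2, 5.04 and 8.04 to 5873, 8328 and 5090 CPM, a log2 change of 8.70 ± 0.92 (adjusted p = 4.56e-05). All TCDD livers stood far above all vehicle livers, among which mouse 1 was highest, and without it the log2 change was 9.94. Its neighbour Cyp1a2 (ENSMUSG00000032310, chromosome 9, 57676937 to 57683703), the main CYP1 of unexposed liver, went from 1841, 1465 and 260.3 to 14200, 20110 and 13880 CPM. That is a log2 change of 3.76 ± 0.58 (adjusted p = 0.000904), with vehicle mouse 13 well below the other two. Cyp1b1 (ENSMUSG00000024087, chromosome 17, 79701537 to 79715061), the CYP1 found mostly outside hepatocytes, went from 2.52, 1.01 and 2.70 to 1397, 1037 and 1223 CPM and rose by 9.19 ± 0.76 (adjusted p = 4.51e-06).

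Ahrr (ENSMUSG00000021575, chromosome 13, 74211118 to 74292331), the repressor that competes with AHR for ARNT, went from 0.115, 0.0560 and 0.517 to 61.2, 63.0 and 60.6 CPM, a log2 change of 8.03 ± 0.64 (adjusted p = 4.51e-06). Its TCDD livers lay close together, at 61.6 ± 1.27 CPM (SD, n = 3). Tiparp, which marks AHR with ADP-ribose and limits it, went from 13.2, 6.84 and 9.47 to 132, 70.1 and 176 CPM. The quinone reductase Nqo1 went from 15.1, 24.8 and 19.5 to 130.5, 148 and 98.6 CPM. Gsta1, a glutathione transferase, went from 0.573, 2.19 and 1.26 to 20.1, 38.3 and 25.6 CPM with a log2 change of 4.38 ± 0.53 (adjusted p = 0.000143). In each of these 4 genes the groups did not overlap. Ugdh, which makes the UDP-glucuronate used for conjugation, rose by 1.80 ± 0.44 (1.74 without vehicle mouse 1, adjusted p = 0.0619) and Nfe2l2, which encodes the stress regulator NRF2, by 1.53 ± 0.28. Ahr itself did not pass, at 32.7, 51.8 and 70.0 CPM with vehicle and 56.6, 53.4 and 44.6 CPM with TCDD (log2 change 0.00 ± 0.43, adjusted p = 1.0), nor did any other of the 6 tested genes of AHR, its partner and its chaperones. Aldh3a1, a battery member in other tissues, was at 2.24, 0 and 0 CPM with vehicle and 0.321, 0.626 and 0.207 CPM with TCDD and did not pass with (adjusted p = 0.872) or without vehicle mouse 1 (adjusted p = 0.0684). In the fits that left out 1 of the 6 mice, the call ended for Ugdh in 6 of the 6 fits, with an adjusted p of at most 0.0934, and the other calls named here held.

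**Figure D2:**
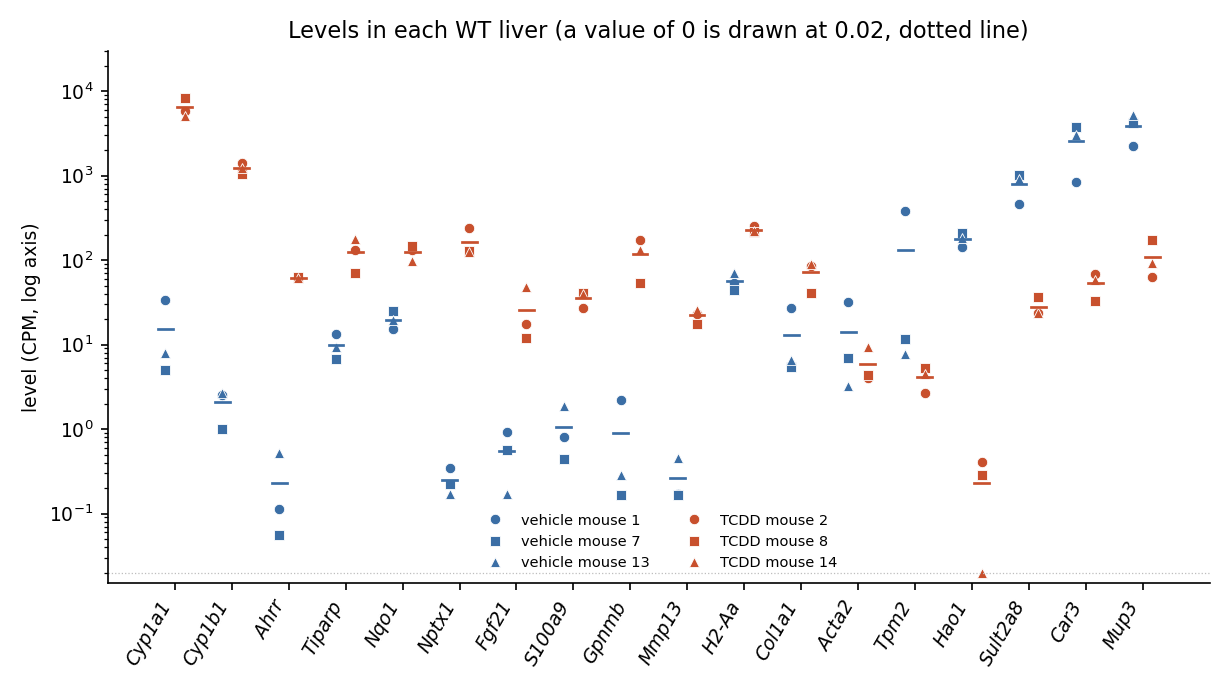
Level of 18 genes in each WT liver in CPM on a log axis: blue, vehicle mice 1, 7 and 13; red, TCDD mice 2, 8 and 14; the bar is the mean of 3. The groups are apart in every gene shown but Acta2, and vehicle mouse 1 stands far above the other vehicle mice in Tpm2, Acta2 and Col1a1.

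Among the other cytochromes more genes fell than rose. Of 29 tested CYP2 cytochromes 1 rose (3.45%) and 3 fell (10.34%), with a median of -0.61. Of 8 CYP3A genes 0 rose and 5 fell (62.5%), with a median of -3.04. Among all tested genes 3.43% rose and 1.95% fell, so the CYP2 share that rose lies at that of all genes. Cyp2c69 went from 461, 1121 and 2105 to 40.9, 41.0 and 12.9 CPM (-5.28 ± 0.71, adjusted p = 0.000314) and Cyp2g1 went from 10.9, 22.0 and 15.6 to 0.778, 0.626 and 0.703 CPM (-4.51 ± 0.54). Cyp2c40 fell by 2.65 ± 0.51. The member that rose was Cyp2d9, known as male-biased in mouse liver, which went from 18.1, 66.6 and 15.96 to 251, 286 and 221 CPM. Cyp3a16, Cyp3a41a, Cyp3a41b, Cyp3a44 and Cyp3a59 were the lowered CYP3A genes; Cyp3a16 went from 175, 2.13 and 188 to 0.549, 0.228 and 0.165 CPM, with vehicle mouse 7 far below the other two, and Cyp3a59 went from 68.6, 133 and 63.7 to 30.6, 18.96 and 31.9 CPM. Cyp3a41a and Cyp3a41b are near-identical copies, and the counting could divide their reads. In the CYP4 list Cyp4a31 rose (2.43 ± 0.44) and Cyp4f14 fell (-2.90 ± 0.52) among 11 tested. Cyp2e1, an abundant ethanol-oxidising cytochrome, was at 8338, 9150 and 6402 CPM with vehicle and 5941, 5567 and 4158 CPM with TCDD and did not pass (adjusted p = 0.661). When each of the 6 mice was left out in turn, the call ended for Cyp3a41a in 5, Cyp3a41b and Cyp3a44 in 4 and Cyp3a16 in 3 of the 6 fits, with an adjusted p of at most 0.156, and the other calls named here held.

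Several sulfotransferases fell, and other conjugating enzymes changed at single genes. Of 15 tested sulfotransferases 6 fell and 0 rose, with 5 above 0. The median was -1.35, and -0.40 without vehicle mouse 1, where 7 fell. Sult2a8, which sulfates bile acids in mouse, went from 459, 1021 and 918 to 23.9, 36.2 and 23.7 CPM (-4.84 ± 0.42, adjusted p = 8.42e-06), and all TCDD livers lay far below all vehicle livers. Sult2a7 went from 67.1, 339.6 and 316 to 0.733, 1.37 and 0.909 CPM and Sult1a1, a phenol sulfotransferase, from 439.8, 721 and 555 to 156, 202 and 131 CPM. Sult3a2 had 1 count over the TCDD livers and 1896 over the vehicle livers, a ratio after scaling of 2287 (95% counting interval 410.5 to 90340). The interval is exact Poisson and covers counting error only, as do those given below for other genes with few counts. Sult3a1 fell by 8.57 ± 1.3, and it and Sult3a2 are close copies whose reads the counting could divide. Of 20 glutathione transferases 2 rose, Gstm3 (2.55 ± 0.41) and Gstp1 (1.94 ± 0.40), and 0 fell. Of 11 tested UDP-glucuronosyltransferases 1 fell, Ugt2b37 (-2.97 ± 0.66). Ugt1a1, Ugt1a2, Ugt1a5, Ugt1a6a, Ugt1a6b, Ugt1a9 and Ugt1a10 were not tested. They had 0 counts in all 6 WT livers and are not read as absent or unchanged. Among 22 flavin monooxygenases, esterases and amidases 2 rose and 5 fell: Nat8, an acetyltransferase, went from 0.344, 0.617 and 0.746 to 6.92, 26.5 and 13.6 CPM, and the carboxylesterase Ces3a went from 530.3, 1084 and 769 to 29.7, 83.8 and 33.3 CPM. Aox1, aldehyde oxidase, rose by 1.29 ± 0.32, and Ces3b, Aadac, Fmo2 and Ces2a fell, with log2 changes of -2.39, -1.60, -1.63 and -1.58. Leaving out 1 of the 6 mice, the call ended for Aox1 in 5, Fmo2 and Ugt2b37 in 3 and Ces2a in 1 of the 6 fits, with an adjusted p of at most 0.0893, and the other calls named here held.

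Most genes with the steepest rises, Ahrr included, had little or no signal in vehicle livers. Col9a2, a collagen IX chain of cartilage, had 2 counts over the vehicle livers and 9216 over the TCDD livers, a ratio of 3820 (95% counting interval 1057 to 31540). Hmx1, a homeobox gene, had 0 and 1104 counts and was at least 305-fold higher against a floor of 3 counts over the group. Fut1, which adds the fucose of the H blood group antigen, and Ecel1, a membrane protease, also had 0 counts in vehicle and were at least 47.8-fold higher and at least 41.2-fold higher. Pnliprp1, a lipase relative, had 1 and 1890 counts. The secreted pentraxin Nptx1 (ENSMUSG00000025582, chromosome 11, 119538719 to 119547753) went from 0.344, 0.224 and 0.172 to 237, 129 and 124 CPM, a log2 change of 9.33 ± 0.77 (adjusted p = 4.51e-06). Amn, which anchors cubilin at the surface of absorbing cells, went from 0.0573, 0.224 and 0.0574 to 15.8, 40.7 and 16.99 CPM, Gipc2, a scaffold protein, from 0.516, 0.168 and 0.230 to 39.2, 54.6 and 31.1 CPM, and the apolipoprotein L gene Apol7c from 0.401, 0.112 and 0.631 to 58.9, 59.1 and 66.8 CPM.

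Others of the 20 genes with the largest rise are of varied kinds. Pls1, the actin-bundling plastin of microvilli, went from 0.229, 0.617 and 0.344 to 46.0, 28.1 and 32.5 CPM (6.46 ± 0.62, adjusted p = 1.90e-05). Fam83a, a signalling scaffold, went from 0.459, 0.448 and 0.230 to 38.4, 23.7 and 16 CPM. The epithelial repressor Ovol1 had 2 and 377 counts, a ratio of 156 (95% counting interval 43.3 to 1290), and Cd163l1, a scavenger receptor known from gamma-delta T cells, 3 and 326, a ratio of 90.1 (95% counting interval 30.8 to 437). Ccr1, a chemokine receptor of myeloid cells, went from 0.287, 0.0560 and 0.0574 to 11.9, 6.43 and 9.67 CPM (6.06 ± 0.86). Mmp7, matrilysin, went from 0.287, 0 and 0.0574 to 15.1, 27.3 and 11.5 CPM and Mmp13, a collagenase, from 0.172, 0.168 and 0.459 to 23.2, 17.6 and 25.5 CPM. Gpnmb, a glycoprotein of lipid-laden macrophages, went from 2.24, 0.168 and 0.287 to 173, 53.4 and 132 CPM and vehicle mouse 1 was the highest of its group. Its log2 change was 7.05 with that mouse and 8.99 without it. The calls of all 20 genes with the largest rises held whichever mouse was left out. Their folds are inflated by the choice of the largest.

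The steepest falls included hepatocyte enzymes, secreted proteins and homeobox genes. Hao1 (ENSMUSG00000027261, chromosome 2, 134497361 to 134554368), glycolate oxidase, went from 144, 208 and 184 to 0.412, 0.285 and 0 CPM, a log2 change of -9.59 ± 0.78 (adjusted p = 4.51e-06). Car3 went from 848, 3781 and 3031 to 68.4, 32.6 and 57.6 CPM, and it was 1 of 5 lowered carbonic anhydrases among 7 tested, with Car1 (-4.30 ± 0.55), Car14 (-3.38 ± 0.44), Car8 (-2.06 ± 0.32) and Car5b (-1.59 ± 0.35), while Car2 rose from 15.7, 13.7 and 12.7 to 104, 91.9 and 62.2 CPM. Vehicle mouse 1 was lowest of the vehicle mice in Car3, and the change was -6.01 without it. Irx1, a homeobox gene, had 1 count with TCDD and 137 with vehicle, a ratio of 165 (95% counting interval 29.7 to 6528), and the caudal homeobox gene Cdx4 had 1 and 110, a ratio of 133 (95% counting interval 23.8 to 5241). Serpina1e, an alpha-1 antitrypsin, went from 64.4, 651 and 291 to 2.33, 5.41 and 4.67 CPM, and 3 of 12 tested serpins of its list fell, among them Serpina12 (-3.65 ± 0.72) and Serpina7 (-3.00 ± 0.64), the thyroxine carrier. Mmd2 went from 12.3, 51.8 and 29.7 to 0.733, 0.0570 and 0.413 CPM, and Susd4, a sushi-domain inhibitor of complement, from 5.33, 18.2 and 16.5 to 0.641, 0.0570 and 0.207 CPM. Nxph1, a neurexophilin, went from 14.2, 8.91 and 8.09 to 0.275, 0.342 and 0.331 CPM, the beta-3 adrenergic receptor Adrb3 from 4.07, 6.39 and 3.67 to 0.137, 0 and 0.207 CPM, and Ube2u, a ubiquitin-conjugating enzyme, from 0.802, 6.89 and 6.77 to 0.0458, 0 and 0.165 CPM. With any 1 of the 6 mice removed, the call ended for Cdx4 in 5 and Car5b and Serpina7 in 1 of the 6 fits, with an adjusted p of at most 0.183, and the other calls named here held.

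Of the 20 largest falls 3 rest on vehicle mouse 1. Tpm2, a muscle tropomyosin, was at 379, 11.7 and 7.63 CPM in the vehicle and 2.66, 5.24 and 4.51 CPM in the TCDD livers, and its log2 change of -5.00 became -1.23 without the mouse (adjusted p = 0.278). Lmod3, at 19.3, 0.504 and 0.459 against 0.137, 0.114 and 0.0413 CPM, went from -6.04 to -2.25 (adjusted p = 0.266). Ankrd2, at 37.3, 1.74 and 1.38 against 0.229, 0.285 and 0.785 CPM, went from -4.92 to -1.81 (adjusted p = 0.136). Over all calls, 17 lowered genes had a value in vehicle mouse 1 over 5 times those of both other vehicle mice, and all 17 lost their call without it, while all 15 raised genes of that kind kept theirs.

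By share of counted reads, besides Cyp1a2, Cyp1a1 and Cyp1b1, the largest gains were in Selenbp1, Saa1, Gstp1, Saa2, Gstm3, Lrg1 and Ugdh. Selenbp1 (ENSMUSG00000068874, chromosome 3, 94933056 to 94944758), a selenium-binding protein that oxidises methanethiol, went from 373, 687 and 418 to 1948, 2736 and 1405 CPM (2.04 ± 0.32, adjusted p = 0.00106). Lrg1, a leucine-rich plasma glycoprotein of the acute phase, went from 166, 309.9 and 190.5 to 457, 1147 and 563 CPM (1.70 ± 0.38), and without vehicle mouse 1 its log2 change was 1.53 (adjusted p = 0.0524). The largest losses included Mup3, Car3, Cyp2c69, Igfbp2, Sult2a8, Ces3a, Acsl1, Inmt and Fads1. Mup3 (ENSMUSG00000066154, chromosome 4, 62083476 to 62087342), a major urinary protein, went from 2213, 4153 and 5262 to 62.2, 173 and 92.8 CPM (-5.15 ± 0.70, adjusted p = 0.000324). Igfbp2, an IGF-binding protein, went from 1210, 1319 and 537 to 47.9, 326 and 103 CPM, a log2 change of -2.68 with vehicle mouse 1 and -2.55 without it (adjusted p = 0.0753). Inmt, an indole methyltransferase, went from 1406, 799.7 and 488 to 186, 315 and 79.3 CPM; its log2 change was -2.21 with vehicle mouse 1 and -1.73 without it (adjusted p = 0.120). In the fits that left out 1 of the 6 mice, the call ended for Ugdh in 6, Igfbp2 in 5, Inmt in 4, Lrg1 in 3 and Acsl1 in 2 of the 6 fits, with an adjusted p of at most 0.169, and the other calls named here held.

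Growth hormone signalling and genes under its control fell at several points. Ghr, the growth hormone receptor, went from 549, 802 and 658 to 245, 256 and 221 CPM (-1.48 ± 0.27, adjusted p = 0.00396), with no overlap of the groups. Socs2, a feedback inhibitor induced by growth hormone through STAT5, went from 40.4, 54.6 and 99.2 to 17.3, 14.9 and 18.1 CPM, and Socs3, induced by cytokines, rose from 16.4, 6.89 and 10.3 to 34.0, 32.7 and 31.2 CPM. In all, 1 of 17 tested genes of growth hormone and STAT5 signalling rose (5.88%) and 3 fell (17.65%), with a median of -0.69. The shares of all tested genes were 3.43% and 1.95%. Igf1 was at 542, 1041 and 839 CPM with vehicle and 304, 851 and 352 CPM with TCDD and did not pass (adjusted p = 0.725). Of 19 major urinary protein genes 5 fell and 0 rose, with a median of -2.30 and 2 members above 0, and Mup7, Mup10, Mup11 and Mup12 fell besides Mup3. These genes are near-identical copies, so how a change divides among them is uncertain. Of 20 female-biased liver genes 1 rose and 8 fell, and of 12 male-biased genes 1 rose and 2 fell. Prom1 was the female-biased gene that rose (2.21 ± 0.47), and Slco1a1 fell with Susd4 among male-biased genes (-3.45 ± 0.89). Among 15 secreted liver hormones Fgf21, the stress and fasting hormone, went from 0.917, 0.560 and 0.172 to 17.4, 11.8 and 48.2 CPM and Enho, which encodes adropin, from 8.88, 55.6 and 22.0 to 5.40, 10.1 and 7.57 CPM, where the groups overlapped. When each of the 6 mice was left out in turn, the call ended for Enho, Socs2 and Socs3 in 5, Mup10, Mup11 and Mup7 in 4, Mup12 and Slco1a1 in 3 and Prom1 in 1 of the 6 fits, with an adjusted p of at most 0.435, and the other calls named here held.

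Acute phase genes moved in both directions, 6 up and 2 down of 23, with a median of -0.03, or -0.12 without vehicle mouse 1. Saa1, a serum amyloid A, went from 30.7, 25.1 and 55.5 to 744, 734 and 1276 CPM, Saa2 from 18.1, 16.9 and 42.8 to 496, 505 and 847 CPM and Saa3 from 9.11, 5.21 and 7.98 to 25.4, 79.1 and 41.1 CPM; Saa1 and Saa2 are close copies. Lcn2, an iron-trapping lipocalin, went from 6.19, 8.63 and 10.6 to 171, 246 and 191 CPM (4.58 ± 0.71, adjusted p = 0.00101), and all its TCDD values were far above the vehicle values. Orm2, an acid glycoprotein, rose by 2.97 ± 0.72 and Il1rn, the interleukin 1 receptor antagonist, by 1.67 ± 0.41, while Apcs, the mouse serum amyloid P, went from 87.9, 164 and 175 to 19.5, 34.9 and 51.4 CPM and Serpina3m from 469, 475 and 548 to 145, 99.3 and 101.3 CPM. Of 24 complement genes 2 rose, C1qa (1.53 ± 0.36) and C1qb (1.28 ± 0.33), which macrophages make, and 0 fell; 1 rose without vehicle mouse 1, C1qa. Of 20 coagulation genes Vwf rose (1.70 ± 0.40) and F7 fell (-1.12 ± 0.25). Leaving out 1 of the 6 mice, the call ended for C1qb, Il1rn, Orm2 and Serpina3m in 5, Vwf in 4 and C1qa and F7 in 3 of the 6 fits, with an adjusted p of at most 0.111, and the other calls named here held.

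Most neutrophil genes rose. Of 21 tested 15 rose (10 without vehicle mouse 1), with a median of 4.44, beside 3.43% of all genes tested. The summed level of the 26 genes was 19.2 to 34.6 CPM in vehicle and 300.0 to 381 CPM with TCDD, and 5 to 9 of them had no read in a vehicle liver and 0 in a TCDD liver. Lcn2, which hepatocytes also make, gives most of that sum in the TCDD livers. S100a9, a calgranulin, went from 0.802, 0.448 and 1.89 to 27.1, 40.4 and 39.4 CPM, Cxcr2, the chemokine receptor that guides neutrophils, from 0, 0.112 and 0.230 to 4.44, 5.58 and 4.09 CPM, and Il1r2, a decoy receptor, from 0.229, 0.0560 and 0.0574 to 5.27, 4.27 and 3.76 CPM. Retnlg had 3 counts over the vehicle and 233 over the TCDD livers, a ratio of 64.4 (95% counting interval 22.0 to 312). S100a8 rose by 5.19 ± 1.10, Csf3r, the G-CSF receptor, by 2.82 ± 0.72, Ngp by 4.62 ± 1.21, Mmp8 by 5.18 ± 0.92, Acod1 by 4.65 ± 1.14 and Slfn4 by 4.12 ± 1.10. Because whole liver was sequenced, more cells of a type and more RNA per cell cannot be told apart in this or any later group. With any 1 of the 6 mice removed, the call ended for Slfn4 in 6, Csf3r and Ngp in 5, Acod1 in 4 and S100a8 in 1 of the 6 fits, with an adjusted p of at most 0.145, and the other calls named here held.

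Some macrophage genes rose. Of 23 scar-associated macrophage and monocyte genes 9 rose (11 without vehicle mouse 1; median 1.44, 20 above 0). The 24 genes of the list summed to 21900 to 42480 CPM in vehicle and 14960 to 29600 CPM with TCDD, nearly all of it from Apoe, which hepatocytes also make. Itgax, the CD11c integrin, went from 1.26, 0.729 and 1.15 to 11.8, 5.24 and 7.94 CPM (2.99 ± 0.43, adjusted p = 0.000570), Lgals3, galectin 3, from 8.37, 5.38 and 6.2 to 51.6, 58.8 and 55.1 CPM, and Ms4a7 from 1.26, 0.448 and 0.804 to 12.2, 9.68 and 11.2 CPM. Spp1, osteopontin, went from 49.2, 50.3 and 40.2 to 217, 224 and 156 CPM and Trem2, a lipid receptor, from 1.32, 0.841 and 0.631 to 3.89, 2.28 and 4.30 CPM. Clec7a, a fungal glucan receptor, rose by 2.54 ± 0.49, and Chil3 by 3.38 ± 0.75. Of 18 Kupffer cell genes, the resident macrophages, 2 rose, Marco (2.0 ± 0.56) and Csf1r (1.46 ± 0.35), with a median of 0.27 and no call in a fit of the WT livers alone. Clec4f, the marker most particular to Kupffer cells, was at 137, 64.5 and 170.0 CPM with vehicle and 103, 147 and 177 CPM with TCDD and did not pass (adjusted p = 0.926). The summed level of the 19 Kupffer genes was 740.1 to 1245 CPM in vehicle and 989.6 to 1235 CPM with TCDD, ranges that overlap. In the fits that left out 1 of the 6 mice, the call ended for Marco in 5, Trem2 in 4, Csf1r in 3 and Chil3 in 2 of the 6 fits, with an adjusted p of at most 0.201, and the other calls named here held.

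Genes of B cells and of antigen presentation rose. Of 23 B and plasma cell genes 11 rose (10 without vehicle mouse 1; median 2.54, all 23 above 0), and the 27 genes of the list summed to 23.8 to 56.9 CPM in vehicle and 172 to 311 CPM with TCDD, with 3 to 5 of them without a read in any given liver. Ly6d went from 2.18, 0.504 and 0.746 to 72.1, 46.5 and 74.5 CPM (5.81 ± 0.92, adjusted p = 0.00122), Pou2af1, a B cell coactivator, from 0.917, 0.112 and 0.517 to 7.74, 3.82 and 4.51 CPM, and Cd79a, part of the B cell receptor, from 2.01, 1.74 and 1.03 to 16.03, 10.5 and 9.76 CPM. The transcription factor Pax5 went from 1.03, 0.280 and 0.804 to 8.38, 6.66 and 4.26 CPM. Of 27 T and NK cell genes 1 rose, 3.7% beside 3.43% of all tested genes. It was Il7r (2.19 ± 0.46), which did not pass in a fit of the WT livers alone. In that list 25 genes lay above 0, with a median of 1.03. The list summed to 13 to 31.7 CPM in vehicle and 38.2 to 50.05 CPM with TCDD. Of 21 genes of MHC class II presentation, which B cells, dendritic cells and macrophages use, 11 rose (median 1.91). H2-Aa went from 54.2, 44.8 and 69.7 to 251, 213 and 222 CPM (2.02 ± 0.33, adjusted p = 0.00128) and Cd74, the invariant chain, from 103, 63.2 and 126 to 510.5, 356 and 425 CPM. H2-Eb2 and H2-DMb2 rose by 4.22 ± 1.19 and 2.62 ± 0.46. Flt3, the dendritic cell growth factor receptor, rose by 1.84 ± 0.50. When each of the 6 mice was left out in turn, the call ended for Pax5 in 6, Flt3 and H2-Eb2 in 5, Pou2af1 in 3 and Cd79a and Il7r in 1 of the 6 fits, with an adjusted p of at most 0.205, and the other calls named here held.

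Chemokine and cytokine genes rose in part. Of 23 chemokines 9 rose and 0 fell (median 1.75, 15 above 0), and 1 fell in a fit of the WT livers alone. The 35 genes of the list summed to less with TCDD, at 433.9 to 542.4 CPM, than with vehicle, at 633.3 to 670.4 CPM. Cxcl2 had 3 counts over the vehicle and 132 over the TCDD livers, a ratio of 36.5 (95% counting interval 12.5 to 177), and Cxcl1, which draws neutrophils by the same receptor, went from 1.43, 3.48 and 1.15 to 9.34, 30.0 and 22.3 CPM. Ccl22, which draws regulatory T cells, went from 0.459, 0.392 and 0.287 to 4.35, 5.41 and 5.08 CPM, Pf4 from 3.04, 0.392 and 1.03 to 11.8, 16.1 and 10.8 CPM, and Ccl4 and Ccl7 rose by 3.74 ± 0.74 and 3.58 ± 0.86. Of 32 cytokines, cytokine receptors and adhesion molecules 8 rose (median 1.18), among them Il1r2, Lif (2.52 ± 0.70), Ltb (2.32 ± 0.53), Il1r1, Il1rn, Vcam1 and Tgfb1. Vcam1, which holds leukocytes at vessel walls, went from 19.1, 5.55 and 12.4 to 35.2, 35.9 and 29.5 CPM, and Il1r1 from 58.8, 19.7 and 19.9 to 107, 131 and 86.2 CPM, vehicle mouse 1 lying closest to the TCDD livers in both. Of 41 interferon-stimulated genes 0 rose and 1 fell, Ifi27 (-1.31 ± 0.22), with a median of -0.21. Without vehicle mouse 1 that median was -0.52, and in the WT livers alone without that mouse 4 fell. Leaving out 1 of the 6 mice, the call ended for Lif in 6, Ccl7 in 5, Il1r1 in 3, Ltb and Vcam1 in 2 and Cxcl1 and Pf4 in 1 of the 6 fits, with an adjusted p of at most 0.147. Those of Il1rn, described above, and Tgfb1, described below, also ended in most fits. The other calls named here held.

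**Figure D3:**
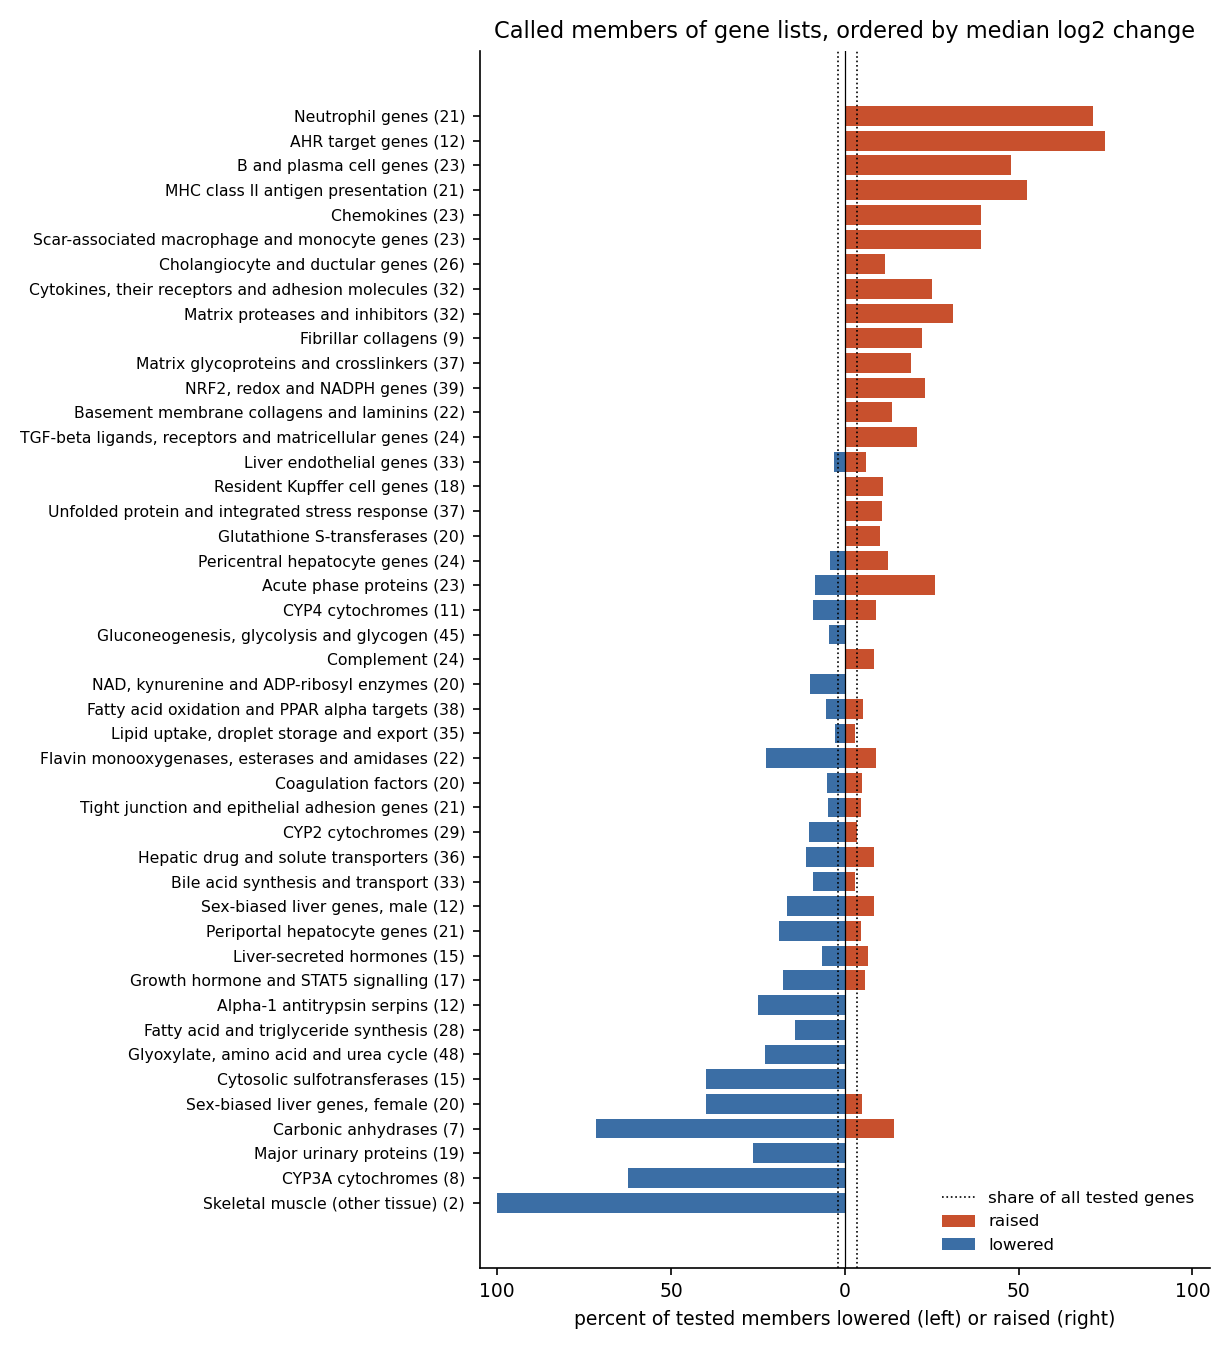
Share of the tested members of each gene list that rose (red, right) or fell (blue, left), for lists with at least 2 called members, ordered by median log2 change, with the number tested in brackets. Dotted lines mark the 3.43% and 1.95% of all tested genes, and the skeletal muscle bar rests on vehicle mouse 1.

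Scar collagens rose in part, and their values depend on vehicle mouse 1. Col1a1 (ENSMUSG00000001506, chromosome 11, 94936224 to 94953042), the main scar collagen, went from 27.1, 5.49 and 6.54 to 84.0, 40.3 and 90.4 CPM (2.46 ± 0.54, adjusted p = 0.0129), and Col3a1 from 75.0, 35.0 and 34.5 to 172, 88.4 and 176 CPM (1.59 ± 0.42). The groups did not overlap in either gene, and vehicle mouse 1 lay above the other vehicle mice in both. Without it the log2 changes were 3.57 and 2.07. Col1a2 went from 47.4, 12.7 and 13.9 to 98.6, 70.3 and 106 CPM and just missed the threshold (adjusted p = 0.0513), and it passed without that mouse (2.79, adjusted p = 0.00668). In all 2 of 9 fibrillar collagens rose (3 without vehicle mouse 1, 0 in a fit of the WT livers alone), 3 of 22 basement membrane genes, and 1 of 15 other collagens, Col9a2 (4 without vehicle mouse 1, where Col6a1 and Col6a2 reached 1.92 and 2.06). With all mice the shares of these lists were 22.22%, 13.64% and 6.67%, beside 3.43% of all tested genes. Col4a3 and Col4a4, a pair of genes that share a promoter region, went from 0.573, 0.336 and 0.172 to 10.6, 0.683 and 11.6 CPM and from 1.78, 1.57 and 0.746 to 8.84, 4.04 and 10.7 CPM, with TCDD mouse 8 the lowest of its group, and Col4a2 rose by 1.37 ± 0.31. With any 1 of the 6 mice removed, the call ended for Col3a1, Col4a2 and Col4a4 in 4 and Col1a1 and Col4a3 in 3 of the 6 fits, with an adjusted p of at most 0.170, and the other calls named here held.

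Several matrix glycoproteins and proteases rose. Of 37 glycoproteins and crosslinkers 7 rose and 0 fell (median 0.82, 30 above 0). Tnc, tenascin C, which appears in wounds, went from 1.20, 0.841 and 0.574 to 19.1, 14.2 and 20.5 CPM (4.35 ± 0.53, adjusted p = 0.000144). Emilin1, of elastic fibres, went from 34.5, 19.2 and 29.4 to 72.0, 61.1 and 70.5 CPM, Thbs1, which activates TGF-beta, from 4.82, 1.51 and 2.24 to 18.4, 11.1 and 21.6 CPM, and Lox, which crosslinks collagen, from 1.03, 0.504 and 0.517 to 2.98, 2.22 and 6.201 CPM. Sparc rose by 1.11 ± 0.24. Fbn2 had 3 and 99 counts, a ratio of 27.4 (95% counting interval 9.36 to 133). Of 32 matrix proteases and inhibitors 10 rose and 0 fell (12 rose without vehicle mouse 1). Mmp12, macrophage elastase, went from 0.573, 0.336 and 0.459 to 19.8, 6.26 and 18.6 CPM and Adamdec1 from 3.61, 1.74 and 4.02 to 53.9, 40.4 and 54.0 CPM, and Mmp9, Adam8, Plaur and Adamts5 rose by 3.00 ± 0.62, 3.39 ± 0.62, 2.17 ± 0.47 and 1.96 ± 0.48. In the fits that left out 1 of the 6 mice, the call ended for Fbn2 in 5, Adamts5 in 4, Lox, Sparc and Thbs1 in 3 and Plaur in 2 of the 6 fits, with an adjusted p of at most 0.111, and the other calls named here held.

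Some genes of TGF-beta signalling rose. Of 24 tested 5 rose and 0 fell (median 0.34, or 0.52 without vehicle mouse 1). The ligand Tgfb2 went from 2.24, 0.897 and 0.804 to 17.9, 12.7 and 12.1 CPM (3.43 ± 0.56, adjusted p = 0.00161), Tgfb1 from 14.2, 8.07 and 12.1 to 27.3, 25.5 and 24.3 CPM and Tgfbi, a TGF-beta-induced matrix protein, from 58.1, 40.0 and 47.5 to 108, 75.2 and 75.3 CPM. The groups were apart in all of these. Ccn2, a target of TGF-beta, had a log2 change of 1.48 (adjusted p = 0.0881), and 2.25 without vehicle mouse 1 (adjusted p = 0.0110). Of 7 PDGF ligands and receptors, the growth signals of stellate cells, 0 passed with all mice and 3 without vehicle mouse 1, Pdgfb (1.36 to 2.22), Pdgfd (0.99 to 1.58) and Pdgfra (0.81 to 1.29). When each of the 6 mice was left out in turn, the call ended for Tgfb1 in 5 and Tgfbi in 4 of the 6 fits, with an adjusted p of at most 0.201, and the other calls named here held.

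No contractile gene of myofibroblasts rose with all mice, and what the list shows depends on vehicle mouse 1. Acta2, smooth muscle actin and the usual marker of activated stellate cells, was at 31.6, 7.0 and 3.27 CPM in the vehicle and 3.98, 4.38 and 9.26 CPM in the TCDD livers, a log2 change of -1.24 ± 1.10 (adjusted p = 0.715) that became 0.20 without vehicle mouse 1 (adjusted p = 0.984). The groups overlapped. Des, desmin, was at 179.9, 7.57 and 5.91 CPM with vehicle and 9.20, 17.1 and 9.38 CPM with TCDD, and Myh11, smooth muscle myosin, at 38.2, 4.37 and 2.70 CPM with vehicle and 3.66, 2.51 and 4.42 CPM with TCDD, each highest in vehicle mouse 1, where skeletal muscle genes were also high. Of 18 tested contractile genes 0 rose and 1 fell, Tpm2, with a median of -1.16. Without vehicle mouse 1 the median was 0.16 and 1 rose, Tpm1, whose log2 change turned from -0.33 to 1.37 (adjusted p = 0.00692). In the WT livers alone without that mouse, a fit added after seeing the data, 3 rose. The cytoskeletal gene Vim was at 78.7, 27.4 and 24.97 CPM with vehicle and 74.5, 77.2 and 77.0 CPM with TCDD and did not pass with (adjusted p = 0.500) or without that mouse (adjusted p = 0.0915). Of 19 genes of quiescent stellate cells 0 passed in either direction with all mice (median -0.17), while without vehicle mouse 1 the median was 0.14 and 1 rose, Cygb, cytoglobin (1.26, adjusted p = 0.0373); Reln was at 52.7, 29.5 and 53.8 CPM with vehicle and 97.0, 61.5 and 69.2 CPM with TCDD. Of 25 retinoid storage and breakdown genes 1 fell, Adh4, a retinol dehydrogenase of hepatocytes (-1.82 ± 0.34).

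**Figure D4:**
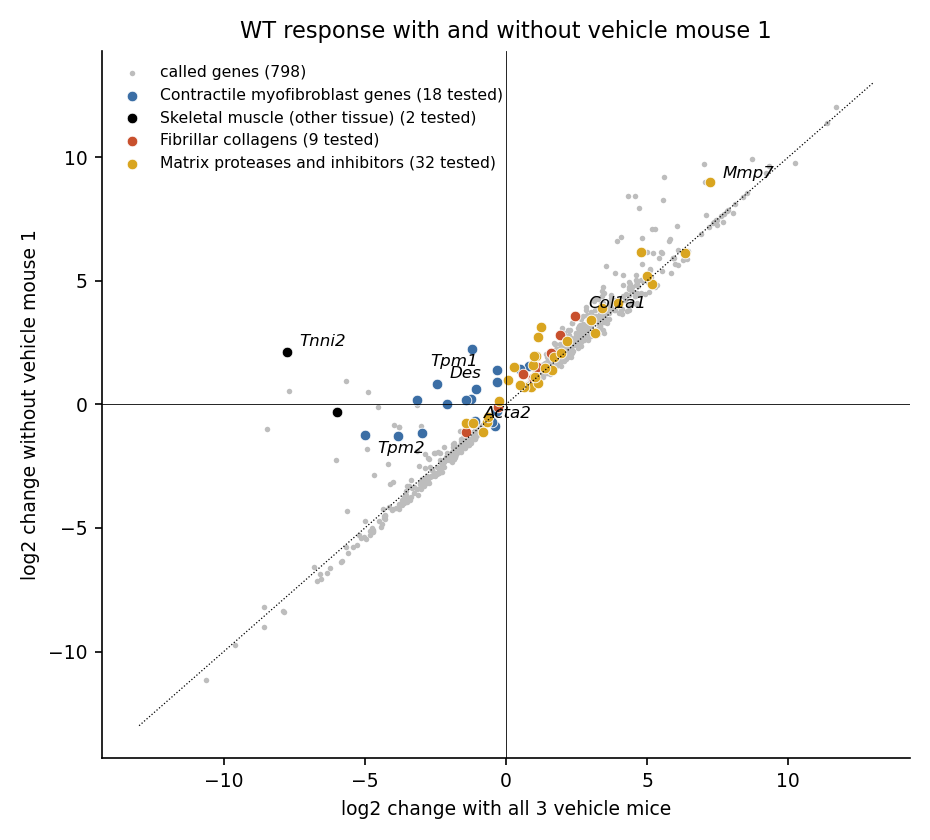
Log2 change of each gene with all 3 vehicle mice (horizontal) and without vehicle mouse 1 (vertical), the dotted line marking equal values. Grey points are the 798 called genes; most contractile myofibroblast genes (blue), the skeletal muscle genes (black), and most fibrillar collagens and matrix proteases (red, yellow) lie above the line, and Acta2 moves from -1.24 to 0.20.

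Some genes of duct and vessel cells passed. Of 26 cholangiocyte genes 3 rose, 11.54% beside 3.43% of all tested genes. These were Prom1, Spp1 and Epcam (1.68 ± 0.45), and the median of the list was 1.27. Keratins of bile ducts did not pass, with Krt19 at 5.50, 2.24 and 1.15 CPM with vehicle and 4.49, 5.98 and 1.94 CPM with TCDD and Krt7 at 2.64, 1.74 and 0.689 CPM with vehicle and 3.94, 5.30 and 2.98 CPM with TCDD. The 31 genes of the list summed to 437 to 849 CPM in vehicle and 989 to 1545 CPM with TCDD. Of 33 endothelial genes Sox17, a factor of arterial endothelium, rose from 5.22, 2.19 and 2.41 to 16.4, 25.3 and 16.7 CPM with Vwf, while Lyve1, a hyaluronan receptor of sinusoids and lymph vessels, went from 14.1, 3.08 and 9.64 to 1.69, 0.854 and 1.49 CPM. Of 44 cell cycle genes 0 rose and 1 fell, E2f8 (-2.51 ± 0.54), although 39 lay above 0 with a median of 1.08. Mki67, the proliferation marker, was at 1.95, 2.75 and 8.32 CPM with vehicle and 8.84, 6.32 and 20.1 CPM with TCDD (adjusted p = 0.362). Leaving out 1 of the 6 mice, the call ended for Epcam and Lyve1 in 5, E2f8 in 3 and Sox17 in 2 of the 6 fits, with an adjusted p of at most 0.148. Those of Prom1 and Vwf also ended in some fits, as given above.

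Enzymes of amino acid breakdown in hepatocytes fell. Of 48 genes of glyoxylate, amino acid and urea metabolism 11 fell (16 without vehicle mouse 1) and 0 rose, with a median of -1.01 and 4 above 0, beside 1.95% of all genes tested. Hal, Uroc1 and Amdhd1, which act in order in histidine breakdown, were among them. Hal went from 334, 1045 and 712 to 168, 171 and 261 CPM, Uroc1 from 365, 601 and 450.3 to 182, 267 and 226 CPM and Amdhd1 from 204, 569 and 363 to 108, 124 and 173 CPM. Gls2, glutaminase of periportal hepatocytes, went from 381, 1102 and 738 to 178, 224 and 232 CPM (-1.81 ± 0.36, adjusted p = 0.00726) and Otc, of the urea cycle, from 516, 962 and 744 to 186, 313 and 232 CPM. Hgd of tyrosine breakdown and the transaminase Gpt2 fell, with log2 changes of -1.09 ± 0.28 and -0.93 ± 0.25. The kynurenine enzymes Kmo and Haao fell, with log2 changes of -0.98 ± 0.27 and -1.15 ± 0.31, the 2 lowered of 20 NAD and kynurenine genes. In Hal, Gls2, Amdhd1 and Hgd vehicle mouse 1 was the lowest vehicle mouse, and the changes without it were -2.13, -2.12, -1.79 and -1.37. Cps1, the entry enzyme of the urea cycle, was at 3467, 4410 and 4438 CPM with vehicle and 1356, 609.7 and 1484 CPM with TCDD, apart between groups but not called (adjusted p = 0.322). With any 1 of the 6 mice removed, the call ended for Gpt2 in 6, Haao, Hgd and Kmo in 5, Amdhd1, Hal and Uroc1 in 4 and Otc in 3 of the 6 fits, with an adjusted p of at most 0.213, and the other calls named here held.

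Lipid and carbohydrate genes changed at a few enzymes. Among 28 genes that build fatty acids and triglycerides 4 fell and 0 rose (median -0.78). Fads1, the delta-5 desaturase, went from 678, 782 and 673 to 191, 139 and 114 CPM (-2.26 ± 0.38, adjusted p = 0.00188) and Elovl2, which lengthens polyunsaturated fatty acids, from 625, 689.6 and 609.7 to 152, 181 and 120.4 CPM. Fasn, fatty acid synthase, went from 938, 441 and 655 to 207, 218 and 134 CPM and Dgat2 from 814, 788 and 688 to 297, 331 and 216 CPM. Among 38 fatty acid oxidation genes Acsl1, which activates fatty acids, went from 845, 1041 and 1150 to 387, 260.0 and 277 CPM and Crat, carnitine acetyltransferase, from 69.9, 58.4 and 46.7 to 16.9, 19.5 and 11.7 CPM, while Ucp2, an uncoupling protein, rose from 57.0, 29.3 and 48.8 to 302, 332 and 214 CPM with Fgf21. In that list 5.26% rose and 5.26% fell, beside 3.43% and 1.95% of all tested genes. Fabp12, a fatty acid binding protein, went from 0.401, 0.448 and 0.689 to 18.4, 23.6 and 30.3 CPM and the lipase Lipc from 264, 383 and 301 to 137, 153 and 142 CPM among 35 genes of lipid uptake, storage and export. Cd36, the fatty acid receptor, was at 187, 75.0 and 171 CPM with vehicle and 448, 378 and 437 CPM with TCDD, apart between groups and not called (adjusted p = 0.105). Of 45 glucose genes Khk, which starts fructose breakdown, fell from 439, 623 and 539 to 147, 244 and 178 CPM. Ldhb was also called lower, but its 69.5, 2.69 and 3.10 against 3.34, 3.08 and 2.11 CPM rests on vehicle mouse 1, and without it the log2 change was -0.03 (adjusted p = 0.991). Of 26 cholesterol synthesis genes 0 passed (median -0.35), and 1 fell without vehicle mouse 1. In the fits that left out 1 of the 6 mice, the call ended for Fasn in 3 and Acsl1, Dgat2 and Elovl2 in 2 of the 6 fits, with an adjusted p of at most 0.0936. Besides the call of Ldhb, which ended without vehicle mouse 1, the other calls named here held.

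Single genes of bile acid handling and transport changed. Of 33 bile acid genes 1 rose, 3.03% beside 3.43% of all tested genes, and 3 fell, 9.09% beside 1.95% (5 fell without vehicle mouse 1). Slco1a4, a bile acid uptake carrier, went from 233, 303 and 174 to 70.2, 52.8 and 70.4 CPM (-1.88 ± 0.25, adjusted p = 0.000283), Cyp27a1, which opens the acidic pathway of synthesis, from 508, 557 and 482 to 293, 250.2 and 245 CPM, and Abcc4, an export pump, rose from 19.3, 7.85 and 11.4 to 75.9, 39.8 and 56.8 CPM. Cyp7a1, the rate-limiting enzyme, did not pass, at 77.2, 181 and 245 CPM with vehicle and 194, 46.4 and 24.9 CPM with TCDD (adjusted p = 0.788). Of 36 other transporters 3 rose and 4 fell: Slc22a3, an organic cation carrier, went from 3.96, 9.08 and 8.61 to 54.5, 43.6 and 38.0 CPM, Slc13a3 from 16.2, 47.2 and 28.1 to 128, 162 and 107 CPM and Slc46a3 from 83.7, 54.0 and 34.5 to 210.5, 319 and 155 CPM, while Slc17a3, Slc22a30, Slc17a2 and Slc16a10 fell, with log2 changes of -1.87, -1.64, -1.49 and -1.39. When each of the 6 mice was left out in turn, the call ended for Cyp27a1 in 5 and Slc17a2 and Slc22a30 in 3 of the 6 fits, with an adjusted p of at most 0.136, and the other calls named here held.

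Some stress response genes rose. Of 39 NRF2, redox and NADPH genes 9 rose and 0 fell (5 rose without vehicle mouse 1). Srxn1, sulfiredoxin, went from 37.5, 60.9 and 59.0 to 196, 174 and 196 CPM (1.84 ± 0.33, adjusted p = 0.00300) and the carbonyl reductase Cbr3 from 2.69, 0.392 and 0.918 to 14.5, 19.9 and 10.6 CPM. Hmox1, heme oxygenase, went from 21.8, 13.3 and 21.6 to 47.7, 39.3 and 73.7 CPM and was the 1 called member of 29 heme and iron genes, of which 0 passed without vehicle mouse 1. Of 37 unfolded protein and integrated stress genes 4 rose (6 without vehicle mouse 1): Fgf21, Asns, asparagine synthetase (3.24 ± 0.82), Mthfd2 (2.33 ± 0.49) and Cebpd (1.34 ± 0.36). In Asns TCDD mouse 14 stood highest, with 6.23, 4.78 and 19.8 CPM over the 3 TCDD livers. Leaving out 1 of the 6 mice, the call ended for Hmox1 in 5, Cebpd in 4, Asns in 3 and Mthfd2 in 1 of the 6 fits, with an adjusted p of at most 0.218, and the other calls named here held.

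Some zonation genes passed, and no identity gene passed with all mice. Of 24 pericentral genes 3 rose, Cyp1a2, Slc22a3 and Nkd1, a Wnt feedback gene (1.32 ± 0.27), and 1 fell, Cyp27a1. Thus 12.5% rose and 4.17% fell, beside 3.43% and 1.95% of all tested genes. Of 21 periportal genes 4 fell, Serpina1e, Igfbp2, Gls2 and Hal, and 1 rose, Cdh1, E-cadherin, from 36.6, 37.9 and 42.0 to 91.5, 106 and 119 CPM (1.44 ± 0.29, adjusted p = 0.00741). Here 19.05% fell and 4.76% rose. Among 21 junction genes Cdh1 rose and the desmoglein Dsg1c fell from 26.5, 10.4 and 4.48 to 0.412, 1.71 and 0.331 CPM. Of 23 hepatocyte identity genes 0 passed, with 2 above 0 and a median of -0.64, and 1 fell without vehicle mouse 1. Hnf4a, their central regulator, was at 990.4, 582 and 648 CPM with vehicle and 672, 699.9 and 649.9 CPM with TCDD. No gene passed among 17 clock genes (median -0.39, or -0.24 without vehicle mouse 1), 13 mitochondrially encoded genes (-0.42, or -0.68 without vehicle mouse 1) and 47 nuclear genes of oxidative phosphorylation (-0.10). Of lists for other tissue, 1 exocrine pancreas gene was tested and fell, Cela1, from 13.7, 42.6 and 66.9 to 7.01, 8.60 and 8.31 CPM; 2 muscle genes were tested and called lower, Mylpf and Tnni2, on vehicle mouse 1 alone, with log2 changes without it of -0.29 and 2.099; and none of 4 fat, 4 mesothelium and 3 erythroid genes passed. With any 1 of the 6 mice removed, the call ended for Cela1 in 3 of the 6 fits, with an adjusted p of at most 0.0763. Those of Mylpf and Tnni2 ended without vehicle mouse 1. The calls of Cyp27a1, Igfbp2 and Hal also ended in some fits, as given above, and the other calls named here held.

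Called genes also stood side by side on the chromosomes. Runs of at least 3 consecutive tested protein-coding genes called the same way numbered 12, 9 raised and 3 lowered, and the genes of these runs were chosen for their position after their values were seen. On chromosome 17 (34238903 to 34341412) H2-Ob, H2-Ab1, H2-Aa, H2-Eb1 and H2-Eb2 all rose, and nearby (34119541 to 34160230) H2-DMa, H2-DMb2 and H2-DMb1, the class II genes and their peptide loaders. On chromosome 6 (123106428 to 123289870) the lectin receptors Clec4a2, Clec4n, Clec4d and Clec4e rose, and on chromosome 5 (90772435 to 90905938) the chemokines Pf4, Cxcl1 and Cxcl2. Other raised runs included Ncf4, Csf2rb2 and Csf2rb on chromosome 15 (78244801 to 78353847), Ms4a7, Ms4a4a and Ms4a4c on chromosome 19 (11321039 to 11427246) and the adhesion receptors Adgrg5, Adgrg1 and Adgrg3 on chromosome 8 (94923694 to 95045250). Lowered runs included Cyp3a16, Cyp3a41b, Cyp3a41a and Cyp3a44 on chromosome 5 (145436309 to 145805874) and Mup10, Mup11 and Mup12 on chromosome 4 (60578260 to 60741326). Fgf21 (chromosome 7, 45613886 to 45615490) and Fut1 (45617289 to 45621059), both raised, lie next to each other, as do Cyp1a1 and Cyp1a2.

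How far the WT response differs from that in livers with a deletion was read from the difference of the responses in the same fit. The dHep response differed from the WT response in 127 genes, 0.856% of those tested, and 122 of them were called in WT; since the WT change enters both, this overlap is set by the construction. Among the 55 genes named by rule for their WT change 26 differed, a count that rests on that choice. In earlier results of these data 5 libraries stood apart (3 dHep, 2 dHSC and no WT library). Without them mouse 3 is the only dHep vehicle liver left. The count of differing genes from that fit is therefore listed only with the processing alternatives and is not read as a result. Nptx1, for example, was at a mean of 0.665 CPM with vehicle and 0.667 CPM with TCDD in dHep livers, a difference of -9.32 ± 0.96 (adjusted p = 0.000120), and Car3 at 2377 CPM with vehicle and 1176 CPM with TCDD, a difference of 4.58 ± 0.68 (adjusted p = 0.00398). Cyp1b1 still stood at 11.9 CPM with vehicle and 87.4 CPM with TCDD in dHep livers, a difference of -6.33 ± 0.82 (adjusted p = 0.00156). Of scar and inflammation genes described above, the differences of 5 did not pass: Col1a1 had a difference of -0.95 ± 0.73 (adjusted p = 0.795), H2-Aa -0.72 ± 0.44 (adjusted p = 0.732), S100a9 -4.27 ± 1.21 (adjusted p = 0.168), Gpnmb -3.07 ± 1.37 (adjusted p = 0.549) and Tnc -1.79 ± 0.67 (adjusted p = 0.408). That does not show that they responded alike. Ly6d (-5.25 ± 1.14, adjusted p = 0.0393) and Cxcl1 (-4.35 ± 0.94, adjusted p = 0.0385) passed. These 7 genes were chosen after their WT values were seen. The dHSC response differed from the WT response in 0 genes (0.0%) by edgeR, with 233 genes at an unadjusted p under 0.05, and in 3 genes by DESeq2.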

How the data were processed

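Liver mRNA of 18 mice was sequenced and reads per gene were deposited as raw counts. Per the submitters' processing notes, the build was GRCm38 and the tools named are HTSeq 0.11.3, HISAT2 2.1.0, DESeq2 1.22.2 and FastQC 0.11.9; counting options and strand use are not given in the sources used here. Genes were matched by ID to GENCODE M21 for names and positions. All 18 libraries were fitted together in edgeR 4.0.16 (R 4.3.3) with 1 mean per group and 12 residual degrees of freedom, after filterByExpr (14835 genes kept) and TMM scaling, and tested by quasi-likelihood with Benjamini-Hochberg adjustment at 0.05. CPM values were computed from the counts after that scaling. The replicates are separate mice. In counts simulated for these 14835 genes, 6 of 14635 unchanged genes were called.

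Genes were named by a rule: called, at a mean of at least 1 CPM, with groups that do not overlap, the 20 largest log2 rises and falls and the 10 largest rises and falls in CPM, plus members of 65 gene lists and Ahr. The members and lists were chosen with earlier results of these data known. Alternatives covered the scaling, the filter, DESeq2 1.42.0, WT libraries alone, a block of mouse numbers and each mouse left out. A few genes that the rule or lists would name are not reported here.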

Additional observations from a re-analysis of the deposited data

Results flagged for a closer look

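The TCDD response of 26 of the 55 genes named by rule differed between dHep livers, without AHR in hepatocytes, and WT livers in edgeR's test of the difference. The genes were chosen for their WT change, so the direction of the difference is in part set by that choice. Each value is the log2 response in dHep minus that in WT, with the p-value of edgeR's quasi-likelihood test after Benjamini-Hochberg adjustment. Genes raised in WT had lower responses in dHep. Among AHR target genes these were Cyp1a1 (-6.44, 0.00582), Cyp1a2 (-3.54, 0.0353), Cyp1b1 (-6.33, 0.00156) and Ahrr (-6.28, 0.000932). Other raised genes were Col9a2 (-12.32, 8.30e-05), Pnliprp1 (-14.65, 0.00105), Nptx1 (-9.32, 0.00012), Gipc2 (-7.73, 0.0026), Pls1 (-6.10, 0.00105) and Fam83a (-5.61, 0.00522). Col9a2 and Pnliprp1 had 2 and 1 counts over the WT vehicle livers, so the size of their difference depends on how the fit treats such counts. Pnliprp1 also had a mean of 0 CPM in the dHep TCDD livers, so its fitted difference is no measured fold.

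Genes lowered in WT had higher responses in dHep. The enzymes among them were Hao1 (9.39, 8.30e-05), Sult3a2 (8.78, 0.0179), Sult3a1 (7.56, 0.0224), Sult2a7 (6.28, 0.00513), Sult2a8 (3.87, 0.00191), Cyp2c69 (5.38, 0.00845), Ces3a (3.75, 0.0112), Car3 (4.58, 0.00398) and Fads1 (2.53, 0.0303). The others were Irx1 (7.40, 0.00582), Serpina1e (5.34, 0.0159), Mmd2 (5.29, 0.00805), Ube2u (4.93, 0.0449), Susd4 (5.03, 0.00932), Mup3 (4.43, 0.0215) and Nxph1 (4.49, 0.027). Sult3a2 and Irx1 had 1 count each over the WT TCDD livers. In the dHSC livers, without AHR in stellate cells, 0 of the 55 named genes differed from WT by the same test.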

How the results depend on the processing

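The 798 calls became 1630 without the 5 libraries of other genotypes that stood apart (971 raised, 659 lowered) and 1336 with DESeq2 (790 raised, 546 lowered), and 792 and 783 of the 798 remained. Leaving out each WT mouse in turn gave 447 to 916 calls, 249 to 565 raised and 137 to 351 lowered. The low counts came without TCDD mouse 2 (447), TCDD mouse 14 (455), vehicle mouse 7 (454) or vehicle mouse 13 (458), fits with fewer samples, and the high count without vehicle mouse 1 (916, of which 648 shared). RLE scaling (792), no filter (761), a minimum of 1 CPM in 3 libraries (790), a 2-fold minimum (769) and WT libraries alone (731, of which 559 shared) stayed within 1.5 times, as did a block of 6 consecutive mouse numbers (888) and, added after seeing the data, WT libraries alone without vehicle mouse 1 (1072). The share of raised genes among calls was 63.8%, and 54.8% to 69.9% when a mouse was left out. The difference between the dHep and WT responses was called in 127 genes, in 40 without the 5 libraries, in 288 with DESeq2 and in 57 to 117 with a WT mouse left out. The fit without the 5 libraries leaves mouse 3 as the only dHep vehicle liver. Its count therefore cannot show how far the difference between the dHep and WT responses holds, and nothing is concluded from it. Between the dHSC and WT responses the count of differing genes was 0 in each edgeR fit run and 3 with DESeq2. Without vehicle mouse 1 the sign turned for Tnni2 (2.099, and 2.11 in WT libraries alone) and Tpm1 (1.37, and 1.38 in WT libraries alone). With each mouse left out, the Tnni2 log2 change ranged from -8.34 to 2.099 and the Tpm1 log2 change from -0.77 to 1.37. No paired analysis was possible because the labels give no number that groups share; the block of 6 consecutive numbers above holds every group once, but the labels do not say that such mice belong together. With 3 mice a group, changes of 2-fold were mostly not recovered in simulated counts, where far fewer genes changed than were called here. A gene that did not pass is not shown to be unchanged.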
